A study of Mus musculus with 42 samples.

Results

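Transcript levels in 2 hypothalamic nuclei of fed mice, the dorsomedial (DMH) and the paraventricular (PVN), were compared gene by gene. The comparison held all 5 fed DMH libraries and all 6 fed PVN libraries, 11 of the 42 libraries of the series, chosen by nucleus and feeding state alone. The mice were adult wild-type C57/BL6 males with free access to food, and the rest of the series consists of the same nuclei after a 24-hour fast and of the arcuate nucleus (ARC) and ventromedial hypothalamus (VMH) in both states. Each library was RNA from tissue that laser-capture microdissection had cut from cresyl violet-stained brain sections, amplified with the NuGEN Ovation RNA-Seq V2 chemistry and read single-end without strand. All 4 nuclei came from the same brains, but the labels tie no library to a mouse, so the libraries were treated as independent. The authors had removed outlier libraries before deposit.

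The PVN is the main output nucleus of the hypothalamus. Its large neurosecretory cells send oxytocin and vasopressin to the posterior pituitary, its small ones release corticotropin-releasing hormone, thyrotropin-releasing hormone and somatostatin at the median eminence, and others project to the brainstem and spinal cord. Most of its neurons use glutamate and descend from a lineage that needs the transcription factors Sim1, Otp, Arnt2 and Pou3f2. The DMH lies behind and below it, mixes GABA and glutamate neurons, and takes part in feeding, body temperature, arousal and circadian food-related behaviour. It borders the lateral hypothalamus, the home of the melanin-concentrating hormone and orexin neurons, and dissections of the DMH can reach their medial members.

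Estimated depth was 2.96 to 5.07 M reads in fed DMH and 1.9 to 6.18 M in fed PVN libraries, a difference in means smaller than the spread within either group (two-sided exact permutation p = 0.407). The values are RPKM, reads scaled to gene length and library size, and they hold a count that was added to every gene. A gene with no reads is therefore not at 0 but at a low recurring value (median 1.60 RPKM), and differences near that level are understated. On the first principal component (25.1% of the variance) the fed DMH and fed PVN libraries did not overlap. The second (14.9%) set fed PVN library 1, at -55.3, apart from the others (-10.3 to 31.6). For Ucn3, Otp and Fezf2, which were highest in that library, the difference is also given without it. List medians include it. In bulk tissue, fewer cells of a type and less RNA per cell cannot be told apart.

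In fed mice 1150 of 33579 genes tested, or 3.42%, passed an adjusted p of 0.1 in limma, and so did 1116 (4.65%) of the 23996 tested genes that stood above the no-read value in at least 4 libraries. Of the 1150, 570 (1.70% of the genes tested) were higher in the DMH and 580 (1.73%) were higher in the PVN. A log2 difference of at least 1 was reached by 158 and 182 of them (340, or 1.01% of the genes tested), of at least 2 by 29 and 18, and of at least 3 by 6 and 3. Protein-coding genes made up 995 of the 1150, 441 of the 570 higher in the DMH and 554 of the 580 higher in the PVN. In 652 the 5 DMH libraries and the 6 PVN libraries did not overlap at all, as they did not in 895 (2.67%) of all genes tested. Among the genes higher in the DMH, 84 stood at the no-read value in all 6 PVN libraries. The converse held for 8 of those higher in the PVN. Single libraries held 19339 to 20966 genes above the no-read value in fed DMH and 17711 to 20219 in fed PVN. Within each of 3 batches, inferred from the deposited values, the direction was the same for 491 of the 570 and 573 of the 580. The labels name no batch. These are the libraries that gave the calls, so the counts are no separate support, and the share over all genes tested was not computed.

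**Figure D1:**
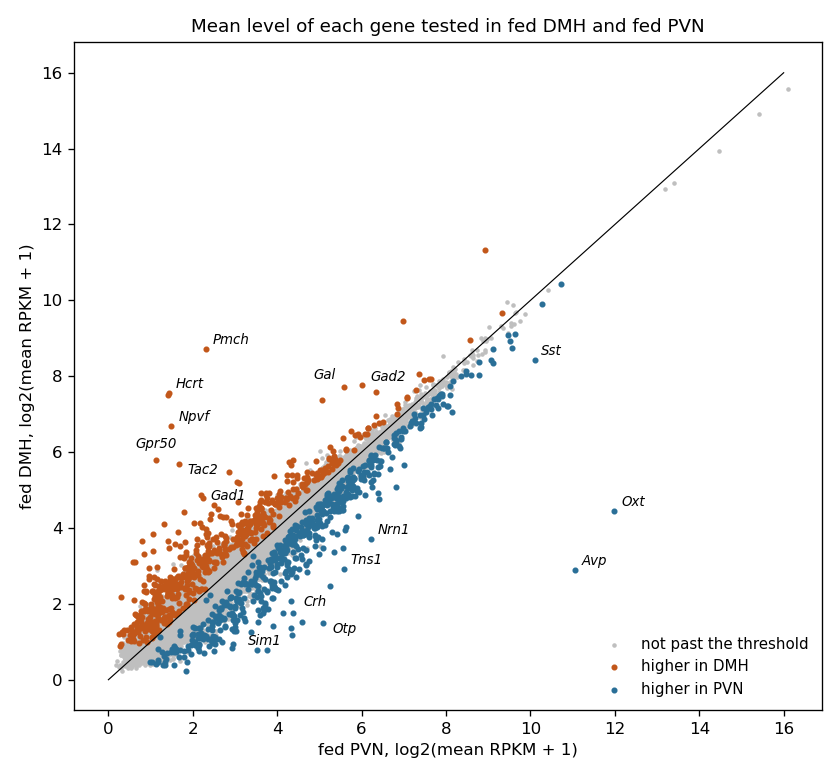
Mean level of each of the 33579 genes tested, as log2(mean RPKM + 1), in fed PVN (x axis, 6 libraries) and fed DMH (y axis, 5 libraries). Orange and blue points are the 570 and 580 genes past an adjusted p of 0.1 in limma, grey points are the rest, and the line marks equal levels. Oxt and Avp lie far below the line and Pmch, Hcrt and Npvf far above it.

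Oxytocin and vasopressin gave the widest gap between the nuclei. Oxt, the oxytocin precursor gene, read 16.2, 27.7, 17.8, 33.2 and 9.32 RPKM in the 5 fed DMH libraries and between 2744 and 5076 (median 4175) RPKM in the 6 fed PVN libraries. The lowest PVN library stood far above the highest DMH library, and the means differed 195-fold (20.8 ± 9.52 RPKM, SD, n = 5, against 4066 ± 955 RPKM, n = 6). On the log2(RPKM + 1) scale used for every difference given here, DMH minus PVN was -7.62 ± 0.45 (SE; adjusted p = 1.74e-14). Avp, the vasopressin precursor gene, read 4.5, 4.71, 10.5, 6.44 and 5.9 RPKM in the DMH and between 1536 and 3399.9 (median 1884) RPKM in the PVN, a 330.2-fold difference of the means and a log2 difference of -8.16 ± 0.34 (SE; adjusted p = 1.54e-18). Vasopressin had the larger ratio, and oxytocin the higher level in both nuclei. In the fed ARC and VMH the means of Oxt were 51.4 and 11.8 RPKM and those of Avp 25.3 and 5.51 RPKM, so the DMH lay between these nuclei for both hormones.

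Both hormones are encoded side by side on chromosome 2 in opposite directions. On GRCm38, Oxt spans 130576173 to 130577054 on the plus strand and Avp 130580620 to 130582554 on the minus strand, with 3565 bases between their ends. The precursors are close relatives, and 16% of the 50-base stretches of Oxt and 14.8% of those of Avp recur in transcripts of another gene, so a part of their reads may have been exchanged or dropped in mapping. The windows from 250 bases before to 50 after their starts (RefSeq, GRCm38.p6) are shown because these are the genes with the largest difference in the comparison. Oxt lies at chr2:130575919-130576218, plus strand and Avp at chr2:130582539-130582838, minus strand. Capitals mark matches, on either strand, to 5 short motifs that were searched: TATAAA (core promoter element), TGACGTCA (cAMP response element), TAATTA (homeodomain core), ACGTG (core site of bHLH-PAS factors, the family of Sim1 and Arnt2) and TGACCT (core element of nuclear receptors).

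Oxt: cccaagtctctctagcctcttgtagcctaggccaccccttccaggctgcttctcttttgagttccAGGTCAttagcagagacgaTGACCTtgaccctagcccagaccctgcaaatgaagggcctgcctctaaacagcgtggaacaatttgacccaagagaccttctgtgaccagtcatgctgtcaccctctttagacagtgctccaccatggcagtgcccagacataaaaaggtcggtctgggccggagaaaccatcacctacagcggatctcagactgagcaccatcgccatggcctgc

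Avp: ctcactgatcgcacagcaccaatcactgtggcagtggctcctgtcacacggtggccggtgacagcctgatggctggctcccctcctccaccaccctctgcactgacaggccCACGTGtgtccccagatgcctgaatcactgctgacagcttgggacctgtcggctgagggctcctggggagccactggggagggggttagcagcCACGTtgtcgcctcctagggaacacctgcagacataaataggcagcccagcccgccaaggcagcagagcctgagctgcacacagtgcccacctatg

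The Oxt window held TGACCT at 2 positions, starting 185 and 166 bases before the start site, and the Avp window held ACGTG at 3, starting 139, 138 and 46 bases before it, the first pair being the overlapping strands of 1 palindrome. Among 32544 RefSeq promoter windows of this length, 16.2% held TGACCT and 19.7% held ACGTG, so neither match is rare. A match of letters does not show that a factor binds.

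The other neuroendocrine peptides of the PVN were higher there too, by smaller ratios. Crh, which encodes corticotropin-releasing hormone, the hypothalamic driver of the adrenal axis, read 1.55, 1.35, 1.96, 1.52 and 5.55 RPKM in the DMH and between 15.5 and 24.1 (median 19.2) RPKM in the PVN, with a log2 difference of -2.73 ± 0.18 (SE; adjusted p = 2.37e-13). DMH library 5 was the highest of the DMH libraries, and the groups did not overlap. Ucn3, the gene of urocortin 3, a ligand of the type 2 corticotropin-releasing hormone receptor, read 1.06, 1.06, 1.11, 1.61 and 1.49 RPKM in the DMH and between 6.47 and 46.9 (median 15.3) RPKM in the PVN, with a log2 difference of -2.94 ± 0.41 (SE; adjusted p = 5.93e-06). PVN library 1 was the high one, and without it the difference was -2.65. Sst, encoding somatostatin, the inhibitor of growth hormone release, was abundant in both nuclei. It ranged over 264 to 439 RPKM in the DMH and 562 to 2103 RPKM in the PVN (log2 difference -1.54 ± 0.22, adjusted p = 1.33e-05). Trh, which encodes thyrotropin-releasing hormone, read 41.8 to 60 RPKM in the DMH and 71.3 to 204 RPKM in the PVN (log2 difference -1.27 ± 0.37, adjusted p = 0.0560). The groups of Trh do not overlap, but its call was lost in 6 of the 11 fits that left out 1 library, with differences of -1.41 to -1.11. The growth factor gene Bdnf (-1.17 ± 0.25, adjusted p = 0.00426) and Nucb2, the nesfatin-1 precursor gene (-0.97 ± 0.16, adjusted p = 9.22e-05), were also higher in the PVN.

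In the DMH the leading peptides were those of lateral hypothalamic and DMH neurons. Pmch encodes melanin-concentrating hormone, which promotes feeding and REM sleep. It read 1003, 307, 277, 294 and 219.7 RPKM in the 5 DMH libraries and between 1.38 and 11.4 (median 2.61) RPKM in the PVN, with a log2 difference of 6.43 ± 0.43 (SE; adjusted p = 3.08e-13). DMH library 1 was more than 3 times as high as any other, and without it the difference was 6.05. Hcrt encodes the orexins, which sustain wakefulness. It read 446, 169.9, 222, 48.8 and 49.6 RPKM in the DMH and between 1.1 and 2.22 (median 1.66) RPKM in the PVN, where 3 of the 6 libraries stood above the no-read value. Its log2 difference was 5.65 ± 0.37 (SE; adjusted p = 1.96e-13), and within the 3 batches it was 7.11, 6.47 and 4.24. DMH library 1 was the highest for this gene as well, and libraries 4 and 5 were the lowest. Npvf, which encodes the RFamide-related peptides and marks a population of DMH neurons, read 52.5, 132, 135, 121 and 72 RPKM in the DMH and between 1.32 and 3.06 (median 1.34) RPKM in the PVN (log2 difference 5.15 ± 0.27, adjusted p = 1.09e-15). Here DMH library 1 was the lowest of the 5, the reverse of its place for Pmch and Hcrt. The same gene stood at 1.61 RPKM in the fed ARC and 2.5 RPKM in the fed VMH.

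Pmch lies on chromosome 10 (88091072 to 88092375, plus strand) and overlaps the end of Parpbp, a gene of the opposite strand (88091432 to 88146941), so that 58.1% of its exon length overlaps exons of Parpbp. Because the reads carry no strand, the Parpbp level cannot be told apart from reads of Pmch. Parpbp was at 535, 101, 107, 97.8 and 67.3 RPKM in the DMH and 0.508 to 4.38 RPKM in the PVN (log2 difference 5.80 ± 0.38, adjusted p = 2.90e-13), with the same DMH library the highest. The promoter windows of the 3 peptide genes highest against the PVN are shown for comparison with those of Oxt and Avp, with the same capitals. They lie at chr10:88090822-88091121, plus strand (Pmch), chr11:100762882-100763181, minus strand (Hcrt) and chr6:50654396-50654695, minus strand (Npvf).

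Pmch: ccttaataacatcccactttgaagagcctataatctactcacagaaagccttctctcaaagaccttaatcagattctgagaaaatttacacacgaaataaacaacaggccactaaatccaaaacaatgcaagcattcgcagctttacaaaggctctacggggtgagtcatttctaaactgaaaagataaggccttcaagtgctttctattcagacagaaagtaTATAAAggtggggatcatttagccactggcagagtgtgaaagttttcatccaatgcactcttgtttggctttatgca

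Hcrt: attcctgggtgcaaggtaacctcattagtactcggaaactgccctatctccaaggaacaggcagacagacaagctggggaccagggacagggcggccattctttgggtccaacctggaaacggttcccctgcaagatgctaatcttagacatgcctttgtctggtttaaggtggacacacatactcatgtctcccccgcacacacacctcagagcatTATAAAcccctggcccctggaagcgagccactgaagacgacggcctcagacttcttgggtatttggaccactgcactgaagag

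Npvf: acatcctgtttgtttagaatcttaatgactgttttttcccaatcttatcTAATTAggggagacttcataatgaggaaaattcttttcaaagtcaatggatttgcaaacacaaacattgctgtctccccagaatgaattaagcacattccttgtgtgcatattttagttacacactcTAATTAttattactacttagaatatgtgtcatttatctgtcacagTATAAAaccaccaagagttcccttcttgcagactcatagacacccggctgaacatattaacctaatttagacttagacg

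All of these 3 windows held a TATAAA, starting 27 (Pmch), 33 (Hcrt) and 29 (Npvf) bases before the start site, where a TATA box usually lies. The motif is in 13.6% of all windows. The Npvf window also held TAATTA at 2 positions, 201 and 74 bases before the start, a motif in 5.29% of windows. GC content was 39%, 53.3% and 34.3% in these windows and 54.7% and 63% in those of Oxt and Avp. The windows of Ucn3 and Tac2 held none of the 5 motifs.

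Other peptides were higher in the DMH by smaller differences. Tac2, the neurokinin B precursor gene, read 70.1, 46.2, 45.8, 39.8 and 50.8 RPKM in the DMH and between 1.24 and 3.04 (median 2.16) RPKM in the PVN (log2 difference 4.04 ± 0.36, adjusted p = 5.33e-10), and its mean in the fed ARC, 106 RPKM, was higher still. Gal, encoding galanin, read 168 to 299 RPKM in the DMH and 29.1 to 72.6 RPKM in the PVN (log2 difference 2.21 ± 0.36, adjusted p = 9.20e-05). Grp, the gastrin-releasing peptide gene, read 12.9 to 21.2 and 1.44 to 6.84 RPKM (log2 difference 2.24 ± 0.37, adjusted p = 1.25e-04), with 2.1 RPKM in the ARC and 1.14 RPKM in the VMH. For Nts, encoding neurotensin, 1 PVN library reached the DMH range (8.16 to 29.9 RPKM in the DMH, 0.885 to 10.5 RPKM in the PVN, log2 difference 2.11 ± 0.42, adjusted p = 0.00167). Cartpt, the CART peptide gene, overlapped between the nuclei as well (115 to 297 and 44.1 to 141 RPKM, log2 difference 1.27 ± 0.28, adjusted p = 0.00555).

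**Figure D2:**
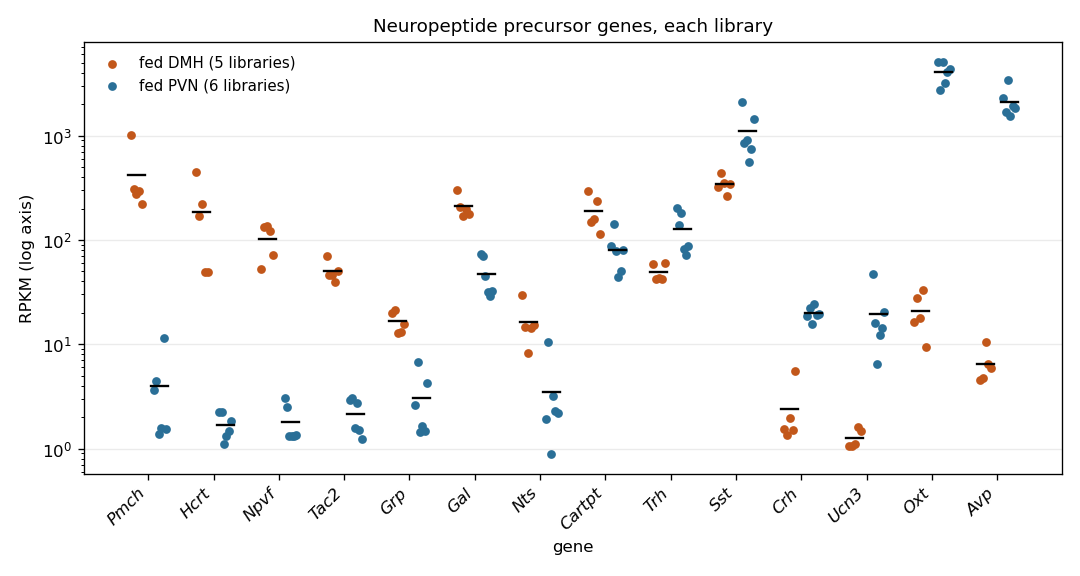
RPKM (log axis) of 14 neuropeptide precursor genes in each of the 5 fed DMH libraries (orange) and 6 fed PVN libraries (blue); black lines are the group means. The 8 genes on the left are higher in the DMH and the 6 on the right in the PVN, and the groups overlap only for Nts and Cartpt.

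Of the 44 neuropeptide precursor genes tested, 9 were higher in the DMH, 9 were higher in the PVN and 26 did not pass, with a median log2 difference of 0.07 beside 0.00 over all genes tested. These 18 calls in 44 genes stand beside calls for 3.42% of all genes tested. That share was 4.65% among genes above the no-read value in at least 4 libraries. The list was chosen with earlier results of these data known, so the comparison is no separate support. Besides those above, the calls were Npw in the DMH, a gene at the no-read value in all 6 PVN libraries, and Pdyn in the PVN, with a difference of -0.40 that missed the threshold in 6 of the 11 fits that left out 1 library. The peptides that define the ARC did not pass: the fed means of Npy were 6.65 ± 3.63 RPKM in the DMH and 7.52 ± 2.48 RPKM in the PVN, against 345 RPKM in the ARC. Pomc stood at 10.5 ± 4.36 and 8.72 ± 4.3 RPKM, and Agrp at 3.49 ± 1.78 and 5.05 ± 3.68 RPKM. The more widely expressed opioid and tachykinin precursor genes, Penk (log2 difference -0.34 ± 0.21, adjusted p = 0.615) and Tac1 (0.09 ± 0.30, adjusted p = 1.0), did not pass either.

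Peptide and hormone receptors split in both directions: of 57 tested, 8 were higher in the DMH and 10 in the PVN, with a median of -0.02. Among those higher in the PVN were Sstr2, a somatostatin receptor (2.12 to 3.56 RPKM in the DMH, 6.81 to 18.7 RPKM in the PVN, log2 difference -1.75 ± 0.25, adjusted p = 1.17e-05), and Cckar, the type A cholecystokinin receptor (-1.67 ± 0.32, adjusted p = 0.00112). Ghr, the growth hormone receptor (-1.21 ± 0.14, adjusted p = 2.23e-07), and Npr3, which clears natriuretic peptides (-1.33 ± 0.28, adjusted p = 0.00318), were also higher there. Calcr, the calcitonin receptor, and Npy1r, a neuropeptide Y receptor, were higher in the PVN by 0.96 and 1.01 on the log2 scale (-0.96 ± 0.24, adjusted p = 0.0153 and -1.01 ± 0.24, adjusted p = 0.0129 as DMH minus PVN). Among those higher in the DMH were Ntsr1, a neurotensin receptor (1.56 ± 0.32, adjusted p = 0.00271), Npsr1, the neuropeptide S receptor (1.37 ± 0.31, adjusted p = 0.00766), Trhr, the thyrotropin-releasing hormone receptor (1.08 ± 0.25, adjusted p = 0.00820), and Tacr1, the substance P receptor (1.06 ± 0.20, adjusted p = 0.00102). The leptin receptor gene Lepr was higher in the DMH (0.64 ± 0.17, adjusted p = 0.0260) at a low level, 1.13 to 2.38 RPKM against 0.441 to 1.02 RPKM, and it missed the threshold without DMH library 5. Receptors for oxytocin and vasopressin did not pass (Oxtr, 0.39 ± 0.30, adjusted p = 0.778; Avpr1a, 0.65 ± 0.37, adjusted p = 0.541).

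The transcription factors of the PVN lineage were mostly higher in the PVN. Of the 14 tested, 8 were higher in the PVN and 1 in the DMH, with a median of -0.78. Sim1, the bHLH-PAS factor without which the nucleus does not form, read 0.788, 2.19, 1.54, 1.56 and 1.8 RPKM in the DMH and between 16.8 and 25.5 (median 18) RPKM in the PVN, with a log2 difference of -2.97 ± 0.13 (SE; adjusted p = 3.76e-18). It was at 0.261 RPKM in the ARC and 0.252 RPKM in the VMH. Otp, the homeodomain factor that acts beside it, read 2.83, 1.61, 1.13, 1.51 and 2.08 RPKM in the DMH and between 7.55 and 109.9 (median 17.4) RPKM in the PVN (log2 difference -3.07 ± 0.40, adjusted p = 1.96e-06). PVN library 1 alone read 109.9 RPKM, and without it the difference was -2.62. Fezf2, a zinc finger factor, was highest in the same library (0.789 to 3.36 RPKM in the DMH, 11.4 to 46.5 RPKM in the PVN, log2 difference -2.99 ± 0.28, adjusted p = 2.69e-09), and without it the difference was -2.75. Pou3f2, which is needed for the Crh, Avp and Oxt neurons, differed by -2.29 ± 0.23, adjusted p = 1.47e-08, and Nhlh2, Ebf3 and Arnt2 by -1.64, -1.63 and -0.87. Ebf3 was not confined to the PVN, since the DMH read 11.6 to 18.2 RPKM where the ARC and VMH means were 0.377 and 0.669 RPKM. The glucocorticoid receptor gene Nr3c1, which carries the feedback of corticosterone on Crh neurons, was higher in the PVN (-0.68 ± 0.15, adjusted p = 0.00539). The exception was Rorb, a nuclear receptor gene, at 26.2 to 32.1 RPKM in the DMH and 9.97 to 13.9 RPKM in the PVN (1.20 ± 0.17, adjusted p = 7.38e-06).

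Further factors outside that list were among the largest PVN genes. Uncx, a homeobox gene, read 0.518 to 0.913 RPKM in the DMH and 7.03 to 14.1 RPKM in the PVN (log2 difference -2.71 ± 0.18, adjusted p = 3.04e-13). Prdm8, a PR-domain gene, read 0.537 to 0.821 and 7.52 to 17.8 RPKM (-2.90 ± 0.27, adjusted p = 1.43e-09), with 29.1% of its exon length shared with a neighbouring gene.

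Transcription factors of the medial and tuberal hypothalamus leaned to the DMH. Of 53 tested, 18 were higher in the DMH and 5 in the PVN, with a median of 0.23. Leaving out 1 library at a time gave 13 to 17 and 3 to 5. The Dlx family, which specifies forebrain GABA neurons, led. Dlx1 read 22.4, 18.7, 20.6, 18.9 and 22.1 RPKM in the DMH and between 1.15 and 7.56 (median 1.43) RPKM in the PVN (log2 difference 2.86 ± 0.26, adjusted p = 1.31e-09), and PVN library 2, at 7.56 RPKM, stood above the other 5. Dlx2 (1.45 ± 0.24, adjusted p = 1.43e-04), Dlx6 (1.14 ± 0.27, adjusted p = 0.00944) and the antisense transcript Dlx6os1 (1.67 ± 0.21, adjusted p = 1.26e-06) were higher in the DMH as well. Bsx, a brain homeobox gene, read 17.3, 22.7, 11.3, 11.1 and 18.2 RPKM in the DMH and between 1.17 and 1.82 (median 1.52) RPKM in the PVN (log2 difference 2.74 ± 0.33, adjusted p = 4.34e-07), with a higher mean in the ARC, 23.9 RPKM.

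Nkx2-1 and Nkx2-4, homeobox genes of the tuberal hypothalamus, were at 8.04 to 9.67 and 4.9 to 13.8 RPKM in the DMH and at 0.498 to 1.28 and 0.694 to 2.53 RPKM in the PVN (log2 differences 2.47 ± 0.16, adjusted p = 8.09e-14; 2.30 ± 0.27, adjusted p = 2.65e-07). The ARC and VMH means of Nkx2-1 were 14.7 and 13.9 RPKM, so on this gene the PVN was the nucleus that stood apart. Prox1 (21.2 to 39.8 RPKM against 2.22 to 5.71 RPKM, log2 difference 2.56 ± 0.20, adjusted p = 1.30e-11) and Isl1 (2.48 ± 0.26, adjusted p = 3.39e-08) were higher in the DMH as well. Hmx2 (1.60 ± 0.21, adjusted p = 2.70e-06) and Hmx3 (1.12 ± 0.14, adjusted p = 8.87e-07), which take part in the development of growth hormone-releasing hormone neurons, were at 1.71 to 9.92 RPKM in the DMH. Besides Prdm8, the members higher in the PVN were Zic1 (-1.68 ± 0.16, adjusted p = 1.72e-09), Foxp2 (-0.80 ± 0.13, adjusted p = 1.47e-04) and, near the no-read level, Zic2 and Otx2.

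**Figure D3:**
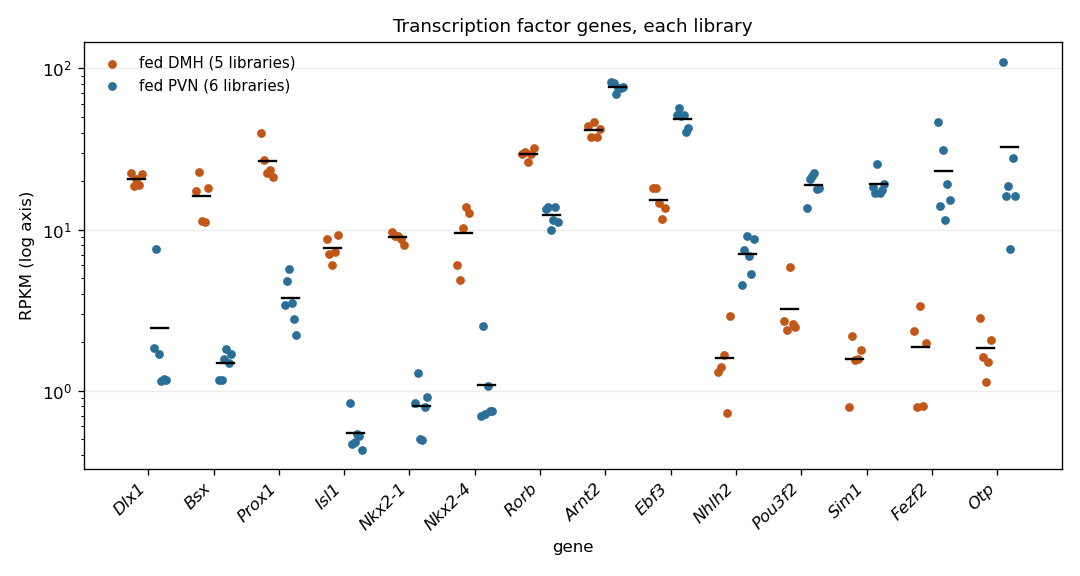
RPKM (log axis) of 14 transcription factor genes in each fed DMH library (orange, 5) and fed PVN library (blue, 6), with black lines for the group means. For each of these genes the groups do not overlap; single high PVN libraries stand out for Dlx1 (7.56 RPKM) and Otp (109.9 RPKM).

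The defining genes of GABA transmission were higher in the DMH. Gad1, which makes glutamate decarboxylase 67, read 34.6, 25.8, 26.8, 27.2 and 25.9 RPKM in the DMH and between 1.97 and 7.16 (median 2.94) RPKM in the PVN, with a log2 difference of 2.74 ± 0.25 (SE; adjusted p = 7.98e-10). Its partner Gad2 read 189 to 307 RPKM in the DMH and 41.6 to 108 RPKM in the PVN (1.81 ± 0.22, adjusted p = 6.15e-07). Slc32a1, the vesicular GABA transporter gene, read 66.6, 28.3, 51.1, 43.6 and 28.4 RPKM in the DMH and between 3.41 and 10.8 (median 4.77) RPKM in the PVN (2.64 ± 0.33, adjusted p = 1.01e-06), with 24.9% of its exon length shared with another gene. In all 3 the 2 nuclei did not overlap, and DMH library 1 was the highest. Slc17a6, the vesicular glutamate transporter gene of most hypothalamic glutamate neurons, read 32.1 to 53.5 RPKM in the DMH and 52.3 to 98.9 RPKM in the PVN, overlapping (-0.61 ± 0.17, adjusted p = 0.0401). That call was lost without DMH library 1 or without PVN library 6, with differences of -0.70 to -0.48 over the fits that left out 1 library. For comparison, the fed VMH, a mostly glutamatergic nucleus, had 155 RPKM of Slc17a6 and 2.37 RPKM of Gad1. Over the whole list of 12 transmission genes, 6 were higher in the DMH and 1 in the PVN, with a median of 0.42.

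Receptor subunits for the same transmitters followed a mixed pattern, with 8 of 35 higher in the DMH and 3 in the PVN (1 without DMH library 1, median 0.22). Among GABA-A subunits, Gabra5 (1.44 ± 0.18, adjusted p = 1.45e-06), Gabre (1.05 ± 0.26, adjusted p = 0.0157) and Gabrg3 (1.04 ± 0.11, adjusted p = 1.95e-08) were higher in the DMH. The kainate receptor genes Grik3 (1.80 ± 0.23, adjusted p = 1.31e-06) and Grik2 (0.70 ± 0.11, adjusted p = 4.31e-05) were higher in the DMH, as was the metabotropic receptor gene Grm5 (1.20 ± 0.13, adjusted p = 7.95e-08).

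Of 17 genes of monoamine, acetylcholine and nitric oxide neurons, 5 were higher in the DMH and 2 in the PVN (1 without DMH library 2), with a median of 0.65. Hdc, the histamine-synthesizing enzyme gene, read 6.24 to 9.76 RPKM in the DMH and 0.31 to 0.952 RPKM in the PVN (2.52 ± 0.23, adjusted p = 1.64e-09). Slc18a2, the vesicular monoamine transporter, read 13 to 14.6 and 1.35 to 5.62 RPKM (1.61 ± 0.32, adjusted p = 0.00150), and the muscarinic receptor gene Chrm3 differed by 1.81 ± 0.38, adjusted p = 0.00296. Th, the rate-limiting enzyme of catecholamine synthesis, did not pass (14.9 ± 1.49 RPKM in the DMH, 17.6 ± 12.6 RPKM in the PVN). In the PVN, Nos1, the neuronal nitric oxide synthase that marks many magnocellular cells, was higher without overlap (7.07 to 10.8 RPKM in the DMH, 18.5 to 21.5 RPKM in the PVN, log2 difference -1.01 ± 0.15, adjusted p = 1.97e-05).

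Of 18 genes that cut and store peptide hormones, 10 were higher in the PVN and 1 in the DMH (median -0.37). Pcsk1, the prohormone convertase PC1/3, read 11.1, 7.86, 9.44, 11.5 and 6.96 RPKM in the DMH and between 31.9 and 55.8 (median 38.3) RPKM in the PVN (-1.97 ± 0.20, adjusted p = 1.98e-08). The granule proteins Scg2 (443 to 529.7 RPKM in the DMH, 586 to 801 RPKM in the PVN, log2 difference -0.58 ± 0.07, adjusted p = 6.17e-07) and Scg5 (-0.77 ± 0.13, adjusted p = 1.57e-04), the release factor Cadps2 (-0.96 ± 0.13, adjusted p = 5.52e-06) and the second convertase Pcsk2 (-0.49 ± 0.10, adjusted p = 0.00242) moved by less than 1 on the log2 scale. Caprin2, an RNA-binding protein that acts on vasopressin messenger RNA, had a larger difference (-1.87 ± 0.22, adjusted p = 3.21e-07). Sytl4, the granule protein granuphilin, was the member higher in the DMH (10.1 to 14.4 RPKM against 2.28 to 6.41 RPKM, log2 difference 1.47 ± 0.23, adjusted p = 6.09e-05).

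Potassium channel genes differed in both directions, 5 of 41 higher in the DMH (3 without DMH library 2) and 6 in the PVN (median 0.07). Higher in the PVN were Kcnh1 (5.24 to 9.76 RPKM in the DMH, 22.3 to 30.6 RPKM in the PVN, log2 difference -1.68 ± 0.21, adjusted p = 9.82e-07), the BK channel subunit gene Kcnmb4 (-1.69 ± 0.27, adjusted p = 9.28e-05) and the A-type channel gene Kcnd3 (-0.83 ± 0.10, adjusted p = 5.76e-07) with its partner Kcnip1 (-0.98 ± 0.15, adjusted p = 3.76e-05). Kcnq5, an M-current subunit gene, was higher in the DMH (1.04 ± 0.26, adjusted p = 0.0169). Among 26 cadherins, 1 was higher in the DMH and 5 in the PVN, but 14 had a positive difference and the median was 0.09. Cdh9 led those higher in the PVN (1.87 to 7.26 RPKM in the DMH, 11.7 to 18.2 RPKM in the PVN, log2 difference -1.58 ± 0.29, adjusted p = 4.93e-04). Of 14 calcium-binding proteins, 3 were higher in the DMH, led by Nrgn (1.32 ± 0.32, adjusted p = 0.0128), and 2 in the PVN (1 without DMH library 4), one of them Necab1 (-0.87 ± 0.17, adjusted p = 0.00144).

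Genes of the leptin-melanocortin pathway, the circuit from leptin to melanocortin receptors that restrains feeding, were mostly below the threshold or higher in the PVN. Of 18, 2 (Lepr and Cartpt) were higher in the DMH and 5 (Sim1, Pcsk1, Nhlh2, Bdnf and Pcsk2) in the PVN, with a median of -0.24. These 5 are members of other lists above. Pomc, Agrp and Npy, given above, did not pass. Of 14 steroid and thyroid hormone receptor genes, 2 were higher in the DMH and 3 in the PVN (median -0.16), and the estrogen receptor gene Esr1 stood at 1.69 ± 0.208 RPKM in the DMH and 1.81 ± 0.547 RPKM in the PVN (-0.04 ± 0.14, adjusted p = 1.0).

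The remaining genes with the largest differences belong to no peptide or transcription factor list. Gpr50, an X-linked orphan receptor related to the melatonin receptors and known from the DMH and tanycytes, read 47.9, 57, 59.6, 47.3 and 60.5 RPKM in the DMH and between 0.407 and 3.0 (median 0.972) RPKM in the PVN (log2 difference 4.75 ± 0.33, adjusted p = 6.40e-13), with 10.5 RPKM in the ARC and 1.24 RPKM in the VMH. Its 5 DMH values lay close together (SD 6.4 RPKM), unlike those of Pmch and Hcrt. The zinc finger gene St18 read 9.19 to 17.7 RPKM in the DMH and 0.547 to 1.04 RPKM in the PVN (2.82 ± 0.22, adjusted p = 1.14e-11), and 4933403O08Rik, a gene without an assigned name, 11.6 to 17.9 and 0.743 to 1.54 RPKM (2.79 ± 0.29, adjusted p = 2.37e-08). In the PVN, Tns1, the focal adhesion protein tensin 1, read 5.61 to 7.57 RPKM in the DMH and 43.5 to 54.3 RPKM in the PVN (-2.67 ± 0.17, adjusted p = 6.77e-14), and its ARC and VMH means (5.76 and 5.52 RPKM) stand beside a DMH mean of 6.55 RPKM. Nrn1, the neurite growth protein neuritin, read 4.84 to 17.8 and 54.6 to 106 RPKM (-2.58 ± 0.28, adjusted p = 7.29e-08), and 1.6 and 1.31 RPKM in the ARC and VMH. Of its exon length, 22.3% is shared with another gene. Shisal2a differed by -2.72 ± 0.28, adjusted p = 1.47e-08. The 24 genes named for size, 12 in each direction, were picked among those whose libraries did not overlap, which fixes their exact permutation p at the smallest that 462 splits of 5 against 6 libraries can give, 0.00433. Each was past the threshold in all alternative fits run.

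**Figure D4:**
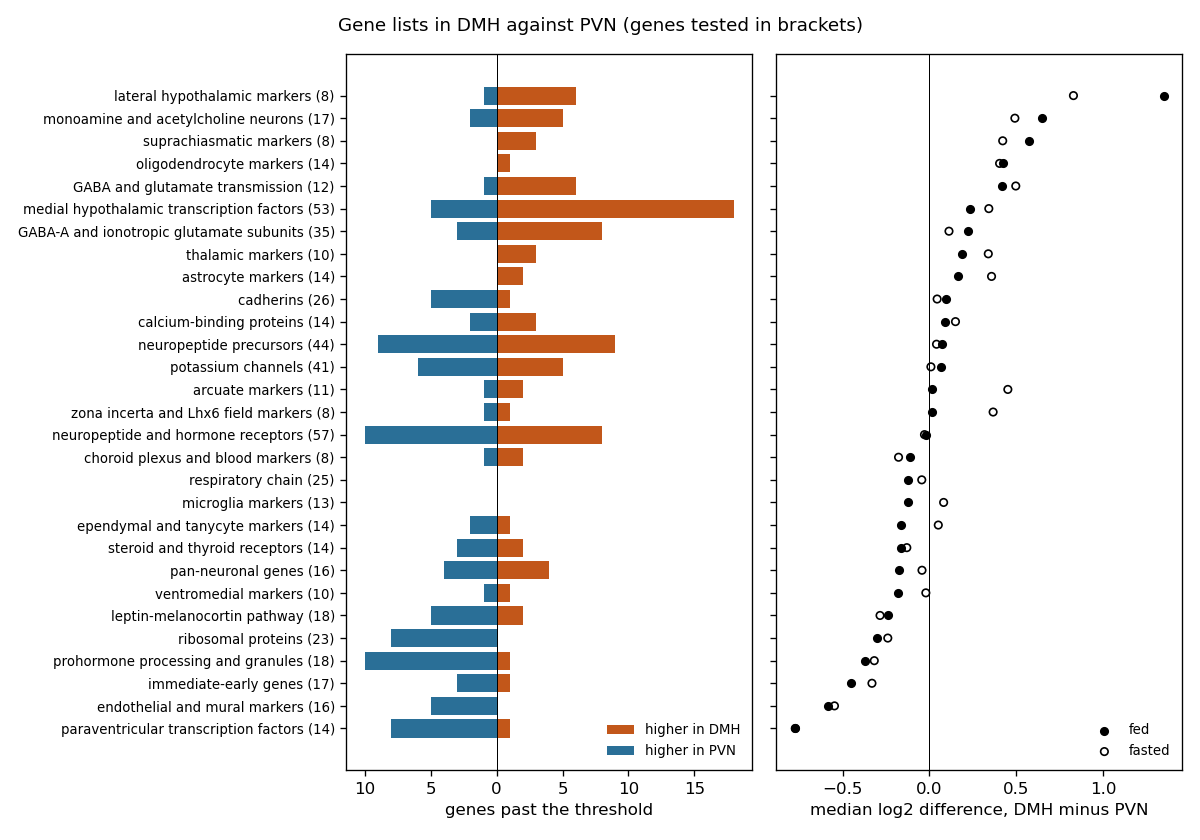
Left, number of genes past an adjusted p of 0.1 in fed mice that were higher in DMH (orange, to the right) or in PVN (blue, to the left) in each of 29 gene lists, with the number tested in brackets. Right, the median log2 difference, DMH minus PVN, of all tested members in fed (filled) and fasted (open) mice; the PVN transcription factors are lowest (-0.78) and the lateral hypothalamic markers highest (1.35).

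Marker lists of neighbouring nuclei and of non-neuronal cells were counted in the same way, and a call does not show which tissue was captured. Lateral hypothalamic markers were higher in the DMH in 6 of 8 members and higher in the PVN in 1 (median 1.35), with summed levels of 450.1 to 1841 RPKM in fed DMH and 111 to 224 RPKM in fed PVN. Pmch and Hcrt are part of that sum, and DMH library 1 was its highest. Whether lateral hypothalamic tissue entered the captures unequally was not tested. Suprachiasmatic markers passed in 3 of 8, and thalamic markers in 3 of 10, each higher in the DMH, but leaving out a single library lowered either count to 1 (without DMH library 3 and DMH library 1). The suprachiasmatic sum was 45.7 to 57.6 RPKM in fed DMH and 19.9 to 40.8 RPKM in fed PVN, and the thalamic sum 63.7 to 97.7 RPKM in fed DMH and 49.1 to 65 RPKM in fed PVN. The lists for the ARC (2 of 11 higher in the DMH, 1 in the PVN), the VMH (1 and 1 of 10) and the zona incerta (1 and 1 of 8) had few calls, and Nr5a1, the defining gene of the VMH, stood at 0.577 ± 0.279 RPKM in the DMH, 0.333 ± 0.0723 RPKM in the PVN and 21.8 RPKM in the VMH.

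Vascular genes leaned to the PVN, a nucleus known for its dense capillary bed. Of 16 endothelial and mural markers, 5 were higher in the PVN and 0 in the DMH by limma (8 and 0 at an unadjusted p under 0.05), 15 of the 16 had a negative difference, and the median was -0.58. Rgs5, a pericyte gene, read 40.9 to 49 RPKM in the DMH and 87.6 to 109 RPKM in the PVN (-1.13 ± 0.14, adjusted p = 9.81e-07), and Slco1a4, a transporter of the blood-brain barrier, 4.66 to 11.1 and 17.2 to 30.6 RPKM (-1.23 ± 0.24, adjusted p = 0.00153). The summed list covered 99.2 to 142 RPKM in fed DMH and 221 to 280.1 RPKM in fed PVN, without overlap. Astrocyte markers passed in 2 of 14, both higher in the DMH (1 without DMH library 3), 13 of the 14 had a positive difference, and the median was 0.16. Of 14 oligodendrocyte markers 1 passed, higher in the DMH. All 14 had a positive difference, with a median of 0.42, and the sums overlapped (160 to 244 RPKM in fed DMH, 120 to 170 RPKM in fed PVN). Of 13 microglial markers 0 passed in limma (2 higher in the DMH and 3 in the PVN at an unadjusted p under 0.05), and the ependymal and tanycyte list had 1 and 2 of 14, the first being Gpr50. Markers of choroid plexus and blood gave 2 higher in the DMH and 1 in the PVN of 8, at sums of 32.9 to 44 RPKM in fed DMH and 23.6 to 63.1 RPKM in fed PVN. Pan-neuronal genes split evenly by limma call, 4 and 4 of 16 (4 and 7 at an unadjusted p under 0.05). Of the 16, 11 had a negative difference, and the median was -0.18. Syt1, a synaptic vesicle calcium sensor, was higher in the DMH (63.7 to 72.3 RPKM against 35.2 to 38.1 RPKM, log2 difference 0.89 ± 0.06, adjusted p = 2.09e-12), and the neurofilament gene Nefm was higher in the PVN (-1.44 ± 0.21, adjusted p = 1.44e-05). The share that cell makeup has in the differences between neuronal genes was not tested.

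Immediate-early genes, which report recent neuronal activity, were higher in the PVN in 3 of 17 (1 of 17 without DMH library 5) and in the DMH in 1 (median -0.45). Fosl2 was the clearest (3.78 to 7.61 RPKM in the DMH, 16.6 to 30 RPKM in the PVN, log2 difference -1.74 ± 0.28, adjusted p = 7.95e-05), and Fos itself did not pass (6.39 ± 2.64 and 9.49 ± 6.34 RPKM). Ribosomal protein genes were higher in the PVN in 8 of 23, all by less than 1 on the log2 scale (median -0.30), a count that fell to 4 without DMH library 4. Of 25 respiratory chain genes 0 passed in limma (median -0.12, with 0 higher in the DMH and 1 in the PVN at an unadjusted p under 0.05). The predicted genes Gm10800 and Gm10801, chosen after their values were seen, were among the most abundant transcripts higher in the DMH, at 979 to 3686 RPKM against 349 to 901 RPKM for the former (log2 difference 2.35 ± 0.53, adjusted p = 0.00714) and a log2 difference of 2.44 for the latter. Their reads may come from many copies, and their counts are uncertain.

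The same 2 nuclei of fasted mice, 4 DMH and 5 PVN libraries that share none with the fed comparison, were compared in the same way. After the fast 1009 genes (3.0%) passed, 554 (1.65%) higher in the DMH and 455 (1.36%) in the PVN. Of the 1150 genes that passed in fed mice, 1067 (92.8%) had the same direction in fasted mice, against 53.7% of all genes tested and 61.8% of those above the no-read value in at least 4 libraries, and 525 passed there too, in the same direction. Those are 45.7% of the fed and 52.0% of the fasted calls. Both comparisons came from 1 fit over all 42 libraries with a shared estimate of the spread per gene. The 525 are therefore not fully separate calls. With the compared groups alone 560 genes passed in fasted mice, 435 of them among the 1009. None of the 1150 passed in the opposite direction. Of the 47 genes with a fed log2 difference of at least 2, all 47 kept their direction and 46 passed. Otp was the one that did not (fasted difference -1.31, adjusted p = 0.147). Among the peptides the fasted difference was -8.13 for Avp (fed -8.16), -7.95 for Oxt (fed -7.62), 6.88 for Pmch (fed 6.43), 5.76 for Hcrt (fed 5.65) and 5.34 for Npvf (fed 5.15). Some genes past the threshold in fed mice were near 0 after the fast, among them Egr1 (fed -0.91 ± 0.25, adjusted p = 0.0340; fasted 0.06) and Vipr2 (fed 0.82 ± 0.22, adjusted p = 0.0336; fasted 0.06), but each missed the fed threshold in 2 of the 11 fits that left out 1 library, and the test of the difference between states did not pass for them (interaction adjusted p = 1.0 and 1.0).

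**Figure D5:**
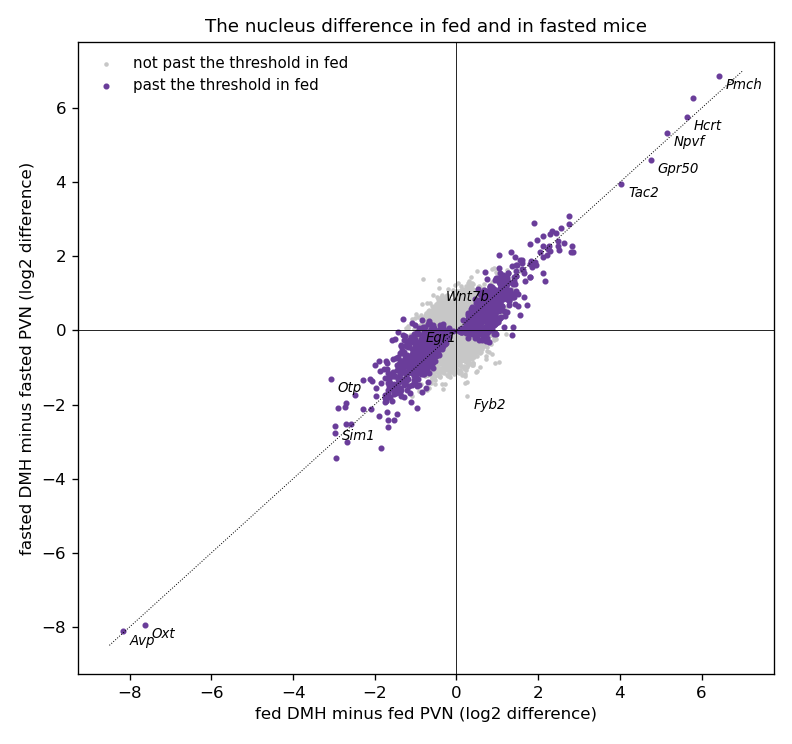
Log2 difference, DMH minus PVN, of each gene tested in fed (x axis) and fasted mice (y axis); purple points passed an adjusted p of 0.1 in fed mice and the dotted line marks equal differences. Of the 1150 purple points 1067 lie on the same side of 0 in both states, and Fyb2 lies far off the line.

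Whether feeding state changed the DMH to PVN difference was tested gene by gene as an interaction. In limma, 1345 of 33579 genes had an unadjusted p under 0.05, a smaller share than the 0.05 that chance alone would give. After adjustment the interaction passed for 1 gene (0.00298%). That gene, Fyb2, did not pass in fed mice (0.355 to 1.83 RPKM, both nuclei together, log2 difference 0.26 ± 0.23, adjusted p = 0.850). In fasted mice it was at 0.532 to 0.917 RPKM in the DMH and 2.22 to 8.47 RPKM in the PVN. The interaction, the fed difference minus the fasted one, was 2.03 ± 0.34 (SE; adjusted p = 0.0244). Without fasted DMH library 3 no gene passed the interaction test, and 19 passed without fasted DMH library 4. The next 3 genes by p, Wnt7b, Gm23780 and Gm13205, had adjusted p-values of 0.225, 0.225 and 0.512.

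Set beside the other nuclei of fed mice, the 2 directions gave different shares. Of the 580 genes higher in the PVN, 474 (81.7%) had their highest fed mean of the 4 nuclei in the PVN, 55 in the ARC and 51 in the VMH. Of the 570 higher in the DMH, 349 (61.2%) had it in the DMH, 152 in the VMH and 69 in the ARC. No test was run on these shares, and the share over all genes tested was not computed. The genes were selected as higher in that nucleus, which raises its share in advance. Of the 570, 84 stood at the no-read value in all their PVN libraries, and of the 580, 8 did so in all their DMH libraries. Among the genes higher in the DMH, Tac2, Bsx and 4933403O08Rik had their highest fed mean in the ARC, and Npvf and Gpr50 had theirs in the DMH.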

How the data were processed

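RNA from 42 laser-captured samples of 4 hypothalamic nuclei (fed or fasted) had been amplified, sequenced single-end without strand and mapped to GRCm38 by the authors. The submitters' notes name CASAVA 1.7, TopHat2 2.0.11, Cufflinks 2.2.1, edgeR and limma; the read counter is not given in the sources used here. The deposited values are RPKM. From their recurring lowest values, a count of about 5.00 reads in a library of mean depth had been added to each gene and the means of 3 batches had been removed, which shrinks differences of genes with few reads. Dividing by the step of 1 read gave whole reads (tolerance 0.06) for 97.3% to 98.6% of values, and depths of 1.34 to 13.2 M reads. The labels name no batch, and the 3 were inferred from these values.

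Groups were taken from the labels, and no column was left unused. The 33579 of 37907 genes that reached 1 RPKM in 4 or more libraries were tested as log2(RPKM + 1) in limma 3.58.1 (R 4.3.3), with 8 group means over all 42 libraries, a trend in the variance and Benjamini-Hochberg adjustment over all genes, two-sided. Since batch means had been removed before deposit without their cost in degrees of freedom, p-values may be somewhat too small. On simulated data with 33579 genes, made for the fed DMH and PVN comparison, the test recovered 79.3% of 111 genes given a log2 difference of 1 and 100% of 89 given 2, and 21 of its 198 calls were false. Only genes with a mean well above the no-read level were changed, and the noise was independent and normal. The shares recovered therefore do not cover genes near the no-read level. Named were the 12 protein-coding genes with the largest difference in each direction, among those past the threshold whose groups did not overlap and whose higher mean reached 5 RPKM, the 4 genes of lowest interaction p, and members of 29 gene lists (up to 4 past the threshold in each direction, and defining members that missed it). Further list members were named after their values were seen. The members and lists were chosen with earlier results of these data known. Same-numbered libraries did not deviate together (correlations of -0.085 to 0.0256 for 5 pairs, and -0.0707 to 0.0533 for 25 other pairs). Of the 5 pairs, 3 shared an inferred batch. Batch means had been removed before deposit, so these correlations cannot decide whether a pair shares a mouse. Nothing ties a library to a mouse, and p-values measure the spread between these samples. Promoter windows came from RefSeq, and gene positions from the GRCm38 annotation, which matched 36049 of the 37907 genes. A sum of a list adds the RPKM of its tested members. The alternatives were other pseudocounts, filters, scalings, sample weights, a fit on the compared groups only, batch or replicate terms, and each library left out. Some items are not reported here.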

Additional observations from a re-analysis of the deposited data

Results flagged for a closer look

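In 9 of 58 groups of 4 to 10 libraries, 1 library stood apart by Dixon's test, where chance would flag about 1 in 20 (2.9 groups). Fed DMH library 1 was high for Pmch (1003 RPKM, the other 4 at 219.7 to 307), for Parpbp, whose reads cannot be told apart from those of Pmch (535 RPKM, the others at 67.3 to 107), for St18 (17.7 RPKM, the others at 9.19 to 10.7) and for Gad1 (34.6 RPKM, the others at 25.8 to 27.2). Without it the log2 differences were 6.05, 5.30, 2.67 and 2.67. Fed DMH library 4 was high for 4933403O08Rik (17.9 RPKM, difference without it 2.69), and fed DMH library 5 for Crh (5.55 RPKM against 1.35 to 1.96, difference without it -2.995). In the PVN, library 2 was high for Dlx1 (7.56 RPKM against 1.15 to 1.85, difference without it 3.17), and library 3 for Sim1 (25.5 RPKM, without it -2.89) and Tns1 (54.3 RPKM, without it -2.63). Each of these differences stayed past the threshold.

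Fyb2 was the gene whose DMH to PVN difference changed with feeding state in the test of that change. The fed minus the fasted difference was 2.03 ± 0.34 on the log2 scale (adjusted p = 0.0244), with 5 of 5 fasted PVN libraries above every other library of both nuclei.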

How the results depend on the processing

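The fed count of 1150 genes ranged over 987 to 1227 when 1 library was left out. It was 1139 with a pseudocount of 0.1, 1150 with 5, 1169 without the filter, 882 with the compared groups alone (685 shared with the 1150), 1635 with array weights (1117 shared), 1182 after quantile normalization, 1129 after median scaling, 1044 with a batch term and 868 at an adjusted p of 0.05. A log2 difference of at least 1 left 340 in fed and 343 in fasted mice. The share of calls higher in the DMH was 49.6%, 54.1% after quantile normalization, 46.0% after median scaling and 44.9% with the compared groups alone. A term for depth, chosen after seeing the data, gave 1107. The fasted count of 1009 was 560 with the compared groups alone, 1565 with array weights and 857 to 1093 with 1 library left out. The interaction had 0 genes in limma with a pseudocount of 0.1 and with the compared groups alone. It had 2 without the filter and 4 with array weights. With 1 library left out it had 0 (without fasted DMH library 3) to 19 (without fasted DMH library 4). In the fit given above 1345 genes had an unadjusted p under 0.05, a smaller share than chance alone would give. Of 164 called list members 83 had a log2 difference of at least 1, and 42 missed the threshold in some fit that left out 1 library. With the replicate number as a block, 955 genes passed in fed mice (933 shared) and 880 in fasted mice, with 1 interaction and 149 list members. Same-numbered libraries are not known to come from the same mouse, so this is given as a sensitivity value alone. No named gene that had passed the threshold reversed under any alternative. Named genes that had not passed were not followed across the alternatives. The depth of 1.90 to 6.18 M reads and the added count leave differences between genes near the no-read value poorly measured, and 5 against 6 libraries limit the detection of differences below 1 on the log2 scale.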
